A study of Mus musculus with 16 samples.

Results

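The 7 genes described here encode the receptors through which mouse microglia bind immunoglobulin G (IgG) and the first steps of their signal: the activating Fc gamma receptors Fcgr1, Fcgr3 and Fcgr4, the inhibitory receptor Fcgr2b, the signalling chain Fcer1g, the neonatal Fc receptor Fcgrt and the kinase Syk. They were taken by symbol from a table of 57010 genes, and each symbol matched 1 row. The libraries came from microglia of the olfactory bulb (OB) of mice aged 2 months. WT animals (C57BL/6J) were compared with APP-NL-G-F animals, labelled KI, in which the App gene carries 3 disease mutations, named Swedish (NL), Arctic (G) and Iberian (F), in every cell that uses it. Each genotype had 4 female and 4 male libraries, 16 in all, with no further treatment in any group. Cells were collected with magnetic beads against CD11b, which other myeloid cells also carry, so each library is a bead-sorted fraction and not a pure cell type. The labels number the libraries within a group but do not say that each came from its own animal, so p-values measure the spread between libraries.

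Fc gamma receptors recognise the constant part of IgG bound to a target and, in macrophages and microglia, start its uptake. The activating receptors depend on the Fcer1g chain, whose activation motif (ITAM) is phosphorylated by Src family kinases and then recruits Syk. Fcgr2b carries an inhibitory motif (ITIM) in its own tail and recruits phosphatases that oppose the signal. Fcgrt is of another structural family: it pairs with beta-2 microglobulin (B2m) inside the cell and returns IgG to the surface instead of signalling.

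The motifs that separate the activating arm from the inhibitory arm are shown first, as coding sequence of the GRCm39 reference, with the codons of the tyrosines that are phosphorylated in capitals. The Fcer1g ITAM spans 45 coding bases over 2 exons at chr1:171057458-171057641, minus strand, and the Fcgr2b ITIM spans 18 bases of 1 exon at chr1:170788640-170788657, minus strand.
Fcer1g ITAM: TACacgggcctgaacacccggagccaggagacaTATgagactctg
Fcgr2b ITIM: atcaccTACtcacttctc
Among the 7 canonical coding sequences the ITAM pattern matched in Fcer1g alone. The shorter ITIM pattern matched 1 time in Fcgr2b, 3 times in Fcgr1 and 1 time each in Fcgr4, Fcer1g and Fcgrt. A match of these letters is a description and not a working site.

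Fcgr2b and Fcgr3 lie on the same strand of chromosome 1 and share a stretch of their IgG-binding part, which bears on how reads can be told apart. The windows below, 150 coding bases over 2 exons in each gene, come from chr1:170794233-170795661 for Fcgr2b and chr1:170881726-170885372 for Fcgr3, both minus strand of GRCm39, and capitals mark the 2 bases that differ.
Fcgr2b: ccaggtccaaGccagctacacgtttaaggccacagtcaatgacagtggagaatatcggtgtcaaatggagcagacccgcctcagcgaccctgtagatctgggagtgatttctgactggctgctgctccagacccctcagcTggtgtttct
Fcgr3: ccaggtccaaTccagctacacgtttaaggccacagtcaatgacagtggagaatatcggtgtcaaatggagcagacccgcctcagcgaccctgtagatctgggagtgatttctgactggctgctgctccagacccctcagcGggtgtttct
Of these bases 148 of 150 (98.7%) were identical, and the longest identical coding run was 129 bases. Cut into 75-base windows, 94 of the 1471 windows of the main Fcgr3 transcript (6.39%) also occurred in Fcgr2b. For Fcgr2b, 13.5% of windows (449 of 3329) occurred in transcripts of some other gene. The genes that shared most of them were not Fcgr3 but others, led by Cplx2 (213 windows), Rab3c (178) and Aldh1a2 (171). No window of the other 5 members occurred elsewhere. The counts of Fcgr2b and Fcgr3 are therefore uncertain to the extent that reads from the shared stretch were assigned to either gene or dropped. For Fcgr2b the same holds for the windows shared with other genes.

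Fcgr2b (ENSMUSG00000026656, chromosome 1, 170786186 to 170804177), Fcgr4 (ENSMUSG00000059089, 170846466 to 170857330, plus strand), Fcgr3 (ENSMUSG00000059498, 170878738 to 170893549) and Fcer1g (ENSMUSG00000058715, 171057141 to 171062219) sit together on chromosome 1. Fcgr1 (ENSMUSG00000015947) is on chromosome 3 from 96190225 to 96201338, Fcgrt (ENSMUSG00000003420) on chromosome 7 from 44742412 to 44756819 and Syk (ENSMUSG00000021457) on chromosome 13 from 52736696 to 52802828. Syk is on the plus strand, and the members whose strand is not given are on the minus strand.

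The libraries held 9052932 to 18117286 counts, and 3 counts, the floor used here, corresponded to 0.169 to 0.347 CPM, the count scaled to library size. Xist and Ddx3y counts matched the sex in the title in 16 of 16 libraries. App ranged over 370.5 to 462.3 CPM among WT libraries and 388.2 to 422.8 CPM among APP-NL-G-F libraries (log2 fold change -0.07, FDR = 0.4), and a count per gene does not check a knock-in of point mutations. The label of microglia was checked with 12 homeostatic markers: their sum was 22960 to 27230 CPM for WT and 23090 to 26820 CPM for APP-NL-G-F libraries, with a median log2 fold change of 0.02. Markers of other cells that carry Fc receptors were low: per library, neutrophil markers summed to 4.254 to 28.21 CPM, natural killer cell markers to 3.022 to 7.09 CPM, B cell markers to 5.267 to 8.083 CPM, dendritic cell markers to 11.63 to 20.69 CPM and mast cell markers to at most 0.2985 CPM. Monocyte markers summed to 93.99 to 265.5 CPM, and to 27.28 to 39.13 CPM without Nr4a1, an immediate early gene that other cells also use, and border macrophage markers to 423.9 to 888.5 CPM.

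All 7 members passed the filter on low values (5 or more counts in 8 or more libraries), with the lowest single count at 89 (Fcgr4). Levels of different genes were compared as CPM per kilobase of annotated exon, averaged over the 16 libraries. Fcer1g was highest at 286 ± 24.3 (SD, n = 16), followed by Fcgr3 at 205 ± 13.8, Fcgr1 at 58.6 ± 4.64 and Fcgr2b at 37.8 ± 2.72. Syk stood at 26.7 ± 2.17, Fcgrt at 14.3 ± 0.969 and Fcgr4 at 8.92 ± 2.30. On this scale Fcer1g, Fcgr3, Fcgr1 and Fcgr2b were above 99.6%, 99.4%, 97.9% and 96.6% of the 17317 genes with a length, and Fcgr4, the lowest member, was above 82.7%. Each gene exceeded the next one in this order in 16 of 16 libraries, except that Fcgrt exceeded Fcgr4 in 15 of 16, where the ranges overlapped. The place of Fcer1g above Fcgr3 depended on the length used. Per kilobase of the longest annotated transcript they stood at 321 and 320, with Fcer1g higher in 7 of 16 libraries.

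Summed per length, the activating receptors Fcgr1, Fcgr3 and Fcgr4 exceeded the inhibitory Fcgr2b by a ratio of 6.4 to 7.6 in WT (median 7.41) and 6.4 to 7.57 in APP-NL-G-F (median 7.27). Fcgr3 made up 72.3% to 78.1% of this activating sum in every library. The level of the signalling chain relative to the receptors that use it depended on the length used: per exon length, Fcer1g divided by the activating sum was 0.976 to 1.15 in WT (median 1.08) and 0.961 to 1.11 in APP-NL-G-F (median 1.01), and per length of the longest transcript it was 0.736 to 0.869 in WT and 0.725 to 0.842 in APP-NL-G-F. The ranges of the genotypes overlapped for each of these ratios.

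**Figure D1:**
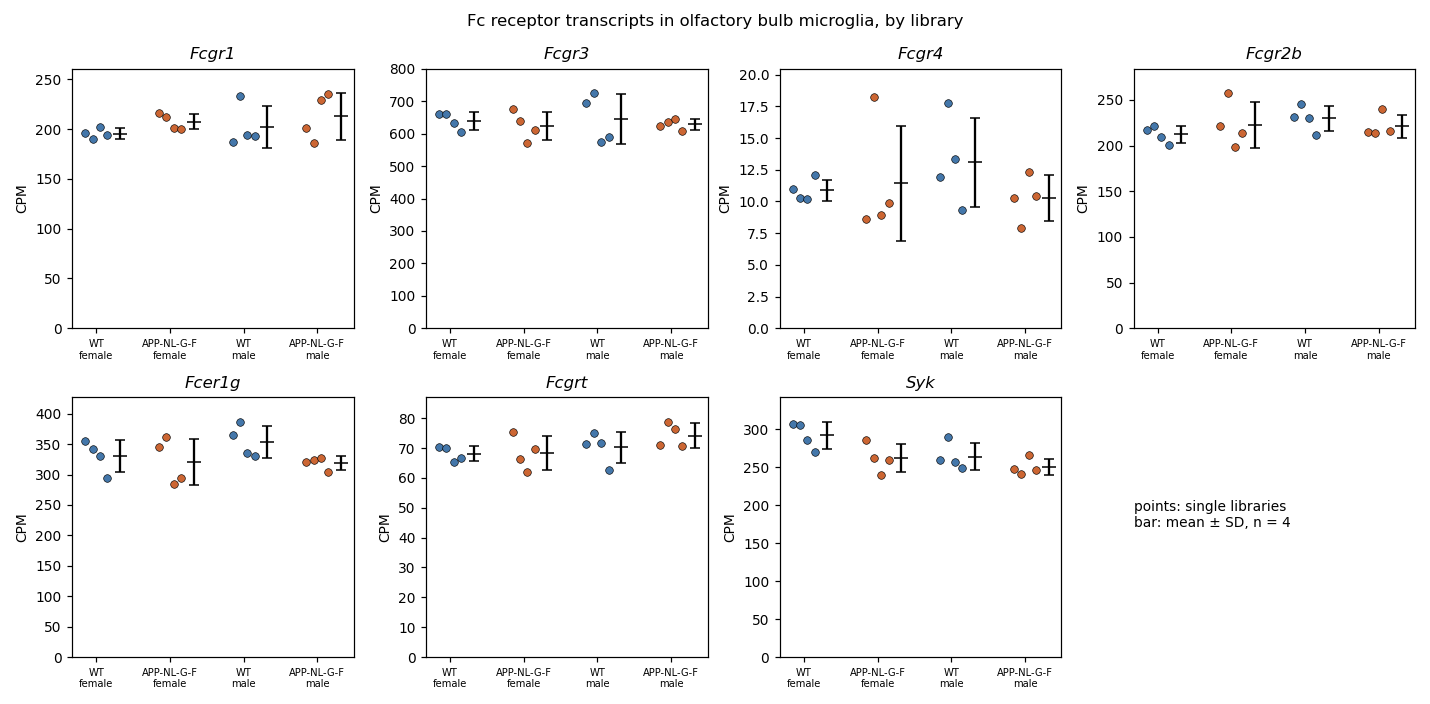
Scaled counts (CPM, vertical axis, from 0) of each member in the 16 libraries, by genotype and sex. Points are single libraries (blue, WT; orange, APP-NL-G-F) and bars are the mean ± SD of 4 libraries. The genotypes overlap in every panel, and Fcgr4, the lowest member, has 2 libraries near 18 CPM, 1 of each genotype.

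The comparison of genotypes asks whether the receptor set of OB microglia differed in APP-NL-G-F animals. None of the 7 members passed the rule for a called gene, a log2 fold change past 0.5 in either direction at a false discovery rate (FDR) below 0.1 in edgeR's quasi-likelihood test with sex as a term. Of all 18227 genes tested, 8.64% passed it. DESeq2 and limma voom called 0 members as well, and 1 member, Syk, had an unadjusted p below 0.05, as did 24.1% of all genes. The 95% intervals of all 7 log2 fold changes lay inside -0.5 to 0.5, with estimates from -0.15 to 0.08. Their median was -0.04, beside -0.001 over all genes tested. The CPM ranges of the genotypes overlapped for all 7 members, while they did not overlap for 1.29% of all genes. In RNA from bulk cells, fewer cells of a type and less RNA per cell cannot be told apart.

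Fcgr1, the high-affinity receptor for IgG, stood in WT females at 195.8, 189.6, 202.2 and 194.4 CPM and in APP-NL-G-F females at 215.7, 211.9, 201.3 and 200.3 CPM. WT males had 187.2, 233.5, 193.7 and 193.2 CPM, and APP-NL-G-F males 200.8, 185.9, 229.3 and 235.4 CPM. Most APP-NL-G-F libraries, 7 of 8, lay above the WT median, but the ranges overlapped in both sexes. The log2 fold change was 0.08 ± 0.053 (SE; 95% interval -0.03 to 0.19; FDR = 0.398).

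Fcgr3, the low-affinity activating receptor and the most abundant of the 3 per length, ranged from 573.6 to 726.6 CPM (median 646) among WT libraries and from 571.7 to 675.7 CPM (median 629.8) among APP-NL-G-F libraries. Its log2 fold change was -0.04 ± 0.051 (SE; interval -0.14 to 0.07; FDR = 0.729), a sign that turned to 0.01 when counts were scaled by library totals alone. The ranges of the genotypes overlapped almost fully.

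Fcgr4, an activating receptor known for its affinity to IgG2 subclasses, was low enough that its spread was wide. WT females gave 10.95, 10.29, 10.21 and 12.05 CPM, and APP-NL-G-F females 8.63, 18.21, 8.956 and 9.879 CPM. WT males gave 11.91, 17.77, 13.34 and 9.345 CPM, and APP-NL-G-F males 10.29, 7.942, 12.34 and 10.47 CPM. APP-NL-G-F female replicate 2 and WT male replicate 2 were the highest of all 16, and the remaining libraries lay between 7.942 and 13.34 CPM. The log2 fold change was -0.15 ± 0.16 (SE; interval -0.49 to 0.19; FDR = 0.643). It was -0.03 without WT male replicate 2 and -0.31 without APP-NL-G-F female replicate 2 (FDR = 0.947 and 0.134).

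Fcgr2b, the inhibitory receptor, stood in WT females at 217.3, 221, 209.6 and 200.8 CPM and in APP-NL-G-F females at 221.9, 257.6, 198.6 and 213.5 CPM. WT males had 231.6, 245.8, 229.9 and 211.2 CPM, and APP-NL-G-F males 215, 213.9, 239.5 and 215.5 CPM. The highest value of the 16 was again in APP-NL-G-F female replicate 2, and the genotypes overlapped in both sexes. The log2 fold change was 0.01 ± 0.052 (SE; interval -0.10 to 0.12; FDR = 0.958), and its sign turned without that library (-0.03).

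The ratio of Fcgr3 to Fcgr2b counts within each library compares the activating and the inhibitory low-affinity receptor without any scaling between libraries. It averaged 2.912 in WT (2.495 to 3.045) and 2.834 in APP-NL-G-F (2.478 to 3.045). The mean log2 ratio differed by -0.04 between genotypes, with p = 0.45 in a two-sided exact permutation test over the 4900 exchanges of genotype within sex, which can reach 0.000408. The WT female libraries were the closest to each other, at 2.987 to 3.045. The ratio is uncertain to the extent that reads from the shared stretch were assigned to either gene or dropped.

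Fcer1g, the chain that carries the ITAM printed above, stood in WT females at 355.9, 342.7, 331.2 and 294.8 CPM and in APP-NL-G-F females at 344.7, 361.9, 284.2 and 293.7 CPM. WT males had 364.8, 386, 334.7 and 330.8 CPM, and APP-NL-G-F males 320.2, 324.4, 327.7 and 303.5 CPM. All 4 male WT libraries were above all 4 male APP-NL-G-F libraries, which was so for 1 of 7 members and, in either direction, for 5.01% of all genes tested. Among females the ranges of all 7 members overlapped, and those of 12.6% of all genes did not. Over both sexes the log2 fold change was -0.10 ± 0.057 (SE; interval -0.22 to 0.02; FDR = 0.313).

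Fcgrt, the receptor that returns IgG to the surface, ranged from 62.67 to 74.98 CPM (median 70.12) among WT libraries and from 62.09 to 78.84 CPM (median 70.77) among APP-NL-G-F libraries. Its log2 fold change was 0.04 ± 0.048 (SE; interval -0.06 to 0.14; FDR = 0.65). Its partner B2m had a WT mean of 1024 ± 127.8 CPM and an APP-NL-G-F mean of 947.2 ± 122.4 CPM (SD, n = 8), with a log2 fold change of -0.11 and FDR = 0.441. Neither partner differed beyond the spread between libraries.

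Syk, the kinase that binds the phosphorylated ITAM, was the member with the smallest p. WT females stood at 307.2, 305, 286.3 and 269.3 CPM and APP-NL-G-F females at 285.7, 261.9, 239.9 and 260 CPM. WT males stood at 259.4, 289.3, 257.3 and 249 CPM and APP-NL-G-F males at 247.4, 241, 265.5 and 246.3 CPM. Of the 8 APP-NL-G-F libraries 1 lay above the WT median, and the ranges overlapped in each sex. The log2 fold change was -0.12 ± 0.046 (SE; interval -0.21 to -0.02), equal to a difference of -7.79%, with an unadjusted p of 0.0196 and FDR = 0.119 in edgeR's test. Libraries were numbered here by the order of the samples in the series, since the titles number replicates within a group only. Numbers 1 to 8 are replicates 1 and 2 of each group, and 9 to 16 are replicates 3 and 4. The log2 fold change of Syk was -0.17 ± 0.054 (SE; FDR = 0.0548) in libraries 1 to 8 and -0.06 ± 0.058 (FDR = 0.85) in libraries 9 to 16. Of all genes, 19.9% had an FDR below 0.1 in the former and 0.525% in the latter. Over the 29 alternatives and left-out libraries the sign held and the FDR ranged from 0.0548 to 0.85, under 0.1 in 7 of them.

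**Figure D2:**
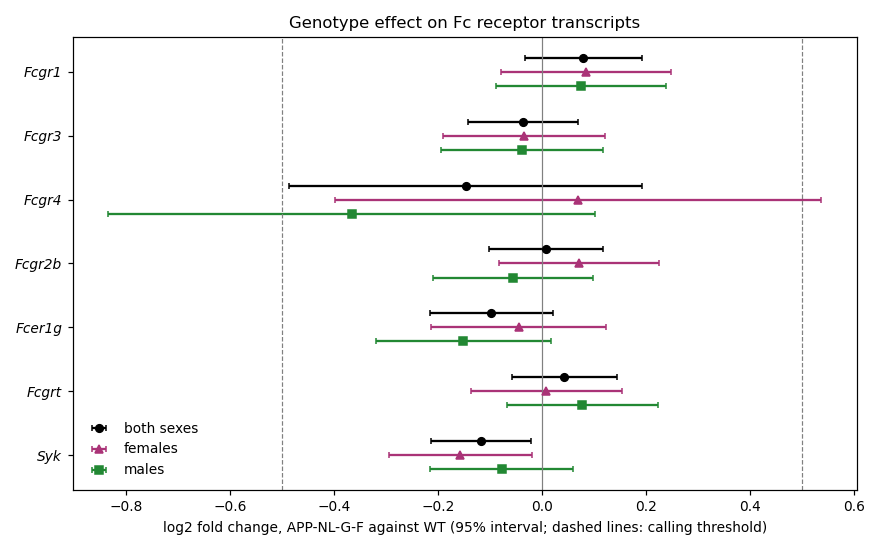
Log2 fold change of each member in APP-NL-G-F against WT (horizontal axis) with its 95% interval, over both sexes (black), in females (purple) and in males (green). Dashed lines mark the threshold of 0.5 in either direction. All intervals over both sexes lie inside the dashed lines, and Syk is the only member whose interval over both sexes leaves out 0.

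Within each sex the members were again not called. In females, where 7.15% of all genes tested were called, 0 of 7 members passed and Syk had an unadjusted p below 0.05, as did 20.8% of all genes (log2 fold change -0.16 ± 0.065, interval -0.29 to -0.02, FDR = 0.177). In males, where 0.252% of genes were called, 0 of 7 passed and none had an unadjusted p below 0.05, as 11.7% of all genes did. The largest male estimates were -0.37 ± 0.22 for Fcgr4 (interval -0.83 to 0.10, FDR = 0.549) and -0.15 ± 0.080 for Fcer1g (interval -0.32 to 0.02, FDR = 0.488). For 6 of 7 members in each sex the interval lay inside the threshold, the exception in both being Fcgr4. DESeq2 and limma voom called 0 members in either sex.

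The difference between the sexes in the genotype effect was tested as an interaction. It was called by edgeR for 0 of 7 members and 0.0274% of all genes, and by DESeq2 or limma voom for 0 members. No member reached an unadjusted p below 0.05, as 5.94% of all genes did. The widest was Fcgr4, at 0.44 in log2 (females minus males, interval -0.23 to 1.10, FDR = 0.965), and without APP-NL-G-F female replicate 2 it was 0.13. Between the sexes themselves, with genotype as a term, 0 of 7 members were called, against 0.0604% of all genes, and again 0 by DESeq2 or limma voom. Syk had the smallest p, with a log2 level 0.11 higher in females (females 276.9 ± 23.3 CPM, males 256.9 ± 15.4 CPM; SD, n = 8; FDR = 0.746).

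Genes that carry the Fc signal onward were followed together with other ITAM-linked, ITIM and Fc receptors, in 7 lists holding 116 genes. Of these pathway genes 101 could be tested, and the counts below are over all 7 lists. None was called for genotype by edgeR, 20 of 101 had an unadjusted p below 0.05, beside 24.1% of all genes, and 25 of 101 had a log2 fold change above 0, beside 9034 of the 18227 genes tested. The median was -0.06. DESeq2 and limma voom called 1 gene each, the ITIM receptor Lilrb4a, which edgeR called in females alone. At FDR alone, without the fold threshold, 8 of 101 passed, beside 14.8% of all genes.

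One list held 24 adaptors and enzymes placed below Syk, and whether each acts there in these cells was not tested. Of these 24 genes, 7 had an FDR below 0.1, beside 14.8% of all genes. All 7 were lower in APP-NL-G-F and inside the fold threshold. Their list had a median log2 fold change of -0.11, with 20 of 24 genes below 0. Of all 18227 genes tested 9034 lay above 0. Scaled by library totals alone the median was -0.06, 17 of 24 genes lay below 0 and 6 of the 7 genes at this FDR were lower. With that scaling 14.5% of all genes had such an FDR, and the share of all genes below 0 was not determined. The 5 with the smallest p were the following. Bcl10, a scaffold that links ITAM receptors to NF-kB, averaged 54.71 ± 6.581 CPM for WT and 42.5 ± 3.371 CPM for APP-NL-G-F (log2 fold change -0.36 ± 0.068, FDR = 0.00267). Lcp2, the adaptor SLP-76, stood at 165.2 ± 10.08 and 141.8 ± 9.999 CPM (-0.22, FDR = 0.00885), and Blnk, a related adaptor, at 141 ± 9.439 and 120.6 ± 9.122 CPM (-0.23, FDR = 0.00978). Pik3cd, a catalytic subunit of phosphoinositide 3-kinase, stood at 199.9 ± 18.9 and 174.5 ± 10.19 CPM (-0.19, FDR = 0.0153), and Pik3r5, a regulatory subunit of the same enzyme family, at 115.5 ± 8.609 and 100.4 ± 9.415 CPM (-0.20, FDR = 0.0155). Errors are SD over the 8 libraries of a genotype.

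The other 2 adaptors at this FDR, named after their values were seen, were the kinase Prkcd (-0.21, FDR = 0.0255) and the adaptor Sh3bp2 (-0.18, FDR = 0.0751). The kinase Btk (-0.12, FDR = 0.133), the phospholipase Plcg2 (-0.09, FDR = 0.35), the exchange factor Vav1 (-0.07, FDR = 0.36) and the adaptor Card9 (-0.14, FDR = 0.174) did not pass. Without 1 library the count of 7 ranged from 6 to 12, the highest without APP-NL-G-F male replicate 3, where 22.2% of all genes had such an FDR. It was 9 of 24 in the libraries numbered 1 to 8, beside 19.9% of all genes, and 0 of 24 by edgeR in the libraries numbered 9 to 16, beside 0.525%. In those latter libraries 7 had an unadjusted p below 0.05 and 19 of 24 lay below 0. The shares of all genes for these counts were not determined, so neither can be set against a background.

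Upstream of Syk, the 6 Src family kinases that phosphorylate the ITAM had a median log2 fold change of -0.01, with none at an FDR below 0.1. Lyn, a main Src family kinase of myeloid cells, averaged 639.5 ± 48.6 CPM for WT and 629.7 ± 42.5 CPM for APP-NL-G-F (-0.02, FDR = 0.835). The 15 genes of actin assembly and the phagocytic cup had a median of -0.04 and none at an unadjusted p below 0.05. Rac1, a GTPase of the cup, gave -0.02 with FDR = 0.849.

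Of the 14 phosphatases and other brakes tested, 1 had an FDR below 0.1, no larger a share than the 14.8% of all genes. It was Inpp5d, the phosphatase SHIP1 that binds the Fcgr2b ITIM, named after its value was seen, with a WT mean of 940.9 ± 60.6 CPM and an APP-NL-G-F mean of 852.8 ± 63.8 CPM (-0.14 ± 0.049, FDR = 0.0787). Ptpn6, the phosphatase SHP-1, gave -0.11 with FDR = 0.168. The median of this list was -0.08.

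Other receptors signal through the same motifs. The 19 ITAM-linked receptors and their adaptor tested had a median of -0.01, and Tyrobp, the adaptor that serves as Fcer1g does, gave -0.07 (FDR = 0.328), Trem2 0.01 (FDR = 0.95) and Clec7a -0.05 (FDR = 0.848). The 19 ITIM receptors had a median of -0.08, with 4 of 19 genes above 0. Lilrb4a averaged 8.87 ± 2.198 CPM for WT and 5.863 ± 2.76 CPM for APP-NL-G-F, with a log2 fold change of -0.59 ± 0.24 and FDR = 0.128. Its call rested on the setting, with FDR = 0.0939 in DESeq2 and 0.0609 in limma voom. In edgeR it was called in females (-0.97, FDR = 0.0862) and not in males (-0.21, FDR = 0.836), and the difference between the sexes did not pass the interaction test (FDR = 0.911). Of 14 other Fc receptors 4 could be tested, and the Fc receptor-like gene Fcrls averaged 1574 ± 79.6 CPM for WT and 1577 ± 78.7 CPM for APP-NL-G-F (0.003, FDR = 0.982). Fcamr was at 0 in all 16 libraries, and Fcer1a, the binding chain of the mast cell IgE receptor that shares Fcer1g, had a count in 1 of 16.

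**Figure D3:**
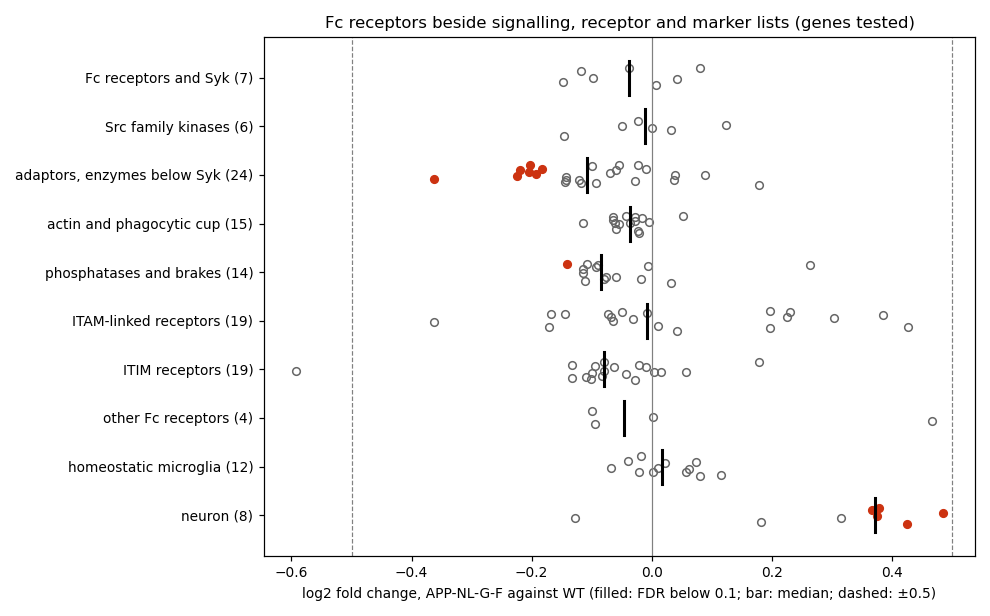
Log2 fold change of each tested gene in APP-NL-G-F against WT (horizontal axis) by list, with the number of genes tested in brackets. Filled points have an FDR below 0.1, black bars are list medians and dashed lines mark the fold threshold. Filled points of the adaptor list, 7 in all, lie left of 0, those of the neuron list, 5 in all, lie right of 0, and none of the Fc receptors and Syk is filled.

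RNA of other cells moved with genotype beside these results. Of 8 neuron markers, 5 had an FDR below 0.1, all higher in APP-NL-G-F, beside 14.8% of all genes. The list median was 0.37, with summed levels of 363.7 to 523.2 CPM for WT and 469.7 to 707.9 CPM for APP-NL-G-F libraries. Of 6 oligodendrocyte markers 2 had such an FDR, with a median of 0.38, and the sums ranged from 185.7 to 372.5 CPM and from 229.5 to 356.4 CPM. Mog alone passed the full rule for a called gene (0.77, FDR = 0.0335), which 8.64% of all genes passed. Astrocyte markers had a median of -0.25 over 6 genes (472.2 to 1154 CPM), with 1 gene, Gfap, at an FDR below 0.1, and endothelial markers -0.16 over 9 genes (57.2 to 211 CPM) with 0 such genes and 0 at an unadjusted p below 0.05 in edgeR. The sexes differed in sign for both lists. In females the endothelial median was -0.97 with 7 of 9 genes called lower, and in males 0.72 with 1 gene called higher. For the interaction 1 gene, Abcb1a, was called (FDR = 0.0233). Of all genes tested 7.15% were called in females, 0.252% in males and 0.0274% for the interaction. The astrocyte median was -0.63 in females with 3 of 6 genes called lower, and 0.11 in males with 0 called. No defining marker of microglia was at 0, and the homeostatic list had 0 of 12 genes at an FDR below 0.1. The part of these cells in the values of the members and the adaptors, over both sexes or within each, was not tested.

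Transcripts of the ligand itself gave few counts. Summed over the 8 libraries of a genotype, the constant chains of IgG gave 0 counts of Ighg1, 13 of Ighg2b, 4 of Ighg2c and 1 of Ighg3 in WT, and 1, 9, 7 and 1 counts in APP-NL-G-F. Heavy chains of other classes were also read. Ighm, the heavy chain of IgM, averaged 197.1 ± 17.5 CPM for WT and 192.1 ± 13.1 CPM for APP-NL-G-F (SD, n = 8; FDR = 0.669). Ighd, that of IgD, averaged 4.35 ± 1.23 CPM for WT and 5.597 ± 0.681 CPM for APP-NL-G-F (log2 fold change 0.37, FDR = 0.114).

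Across libraries the members did not all vary together. Pearson correlations of log2 CPM over the 16 libraries are given as a description, since all values of a library share its depth and scaling. The pair Fcgr2b and Fcgr4 had r = 0.774 (Spearman's rho 0.647), Fcer1g and Fcgr3 0.771 (0.768) and Fcer1g and Fcgr2b 0.759 (0.762). Without the 2 libraries farthest from the median of the gene named first these were 0.47, 0.60 and 0.63. Syk had r = 0.605 with Fcgr3, and Fcgr1 was the member least like the chain, with r = 0.107 to Fcer1g. As deviations from the 4 group means, Syk was more like the rest. Its r rose from 0.139 to 0.723 with Fcgrt, from 0.222 to 0.67 with Fcgr2b and from 0.065 to 0.55 with Fcgr1. With Fcer1g it rose from 0.538 to 0.769, with Fcgr3 to 0.794 and with Fcgr4 from 0.242 to 0.324. Some other pairs fell, as Fcgr1 and Fcgrt did (0.242 to 0.116).

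The tested genes most like each member were read from 9410 genes of at least 3 in mean log2 CPM. For Fcgr1 they were Trim34a (r = 0.90), Znfx1 (0.869) and Phf11b (0.845), and without the 2 libraries farthest from its median 0.833, 0.725 and 0.681. For Fcgr4 they were B2m (0.885), Lgals3bp (0.844) and Cd72 (0.84), which became 0.699, 0.546 and 0.649 without APP-NL-G-F female replicate 2 and WT male replicate 2. For Fcgr2b they were Cd47 (0.878), Acsl5 (0.87) and Tomm70a (0.868).

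For Fcgr3 the most alike were Eif3c (0.933), Cdc37 (0.933) and Slc43a2 (0.931), and for Fcer1g they were Arhgdib (0.928), Pdia3 (0.915) and Dram2 (0.912). Syk was most like Tpm3 (0.946), Irf8 (0.932) and Eloa (0.927), which held at 0.903, 0.925 and 0.918 without WT female replicates 1 and 2. Fcgrt had the weakest partners, Sars (0.815), Txndc12 (0.803) and Tmed4 (0.757). None of the 7 lists of 3 held another member. WT male replicate 2 was among the 2 libraries farthest from the median for Fcgr1, Fcgr2b, Fcgr3, Fcgr4 and Fcer1g.

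**Figure D4:**
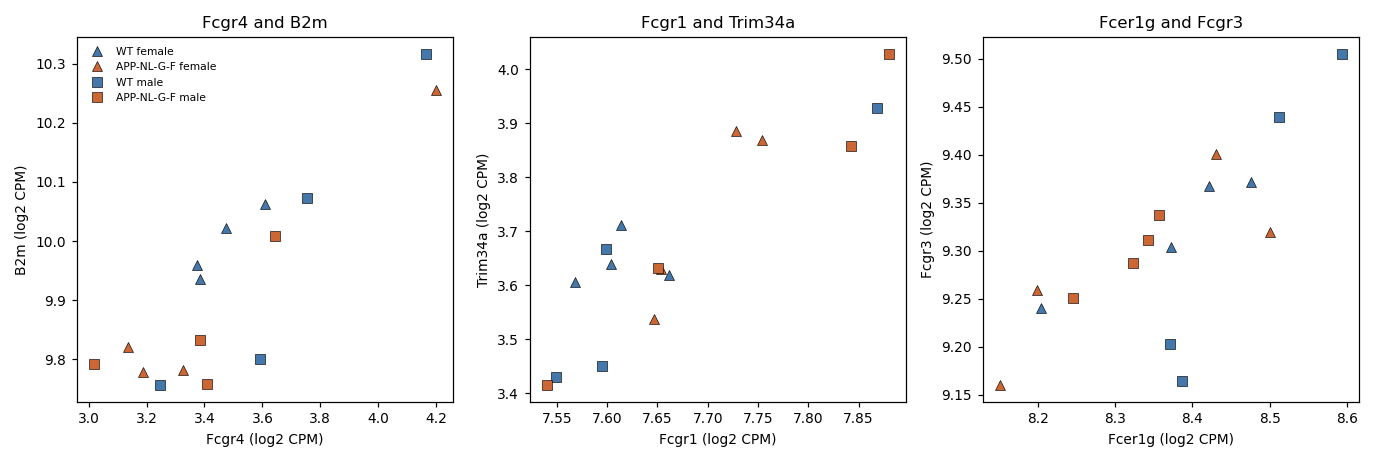
Levels of 3 pairs of genes in the 16 libraries, both axes in log2 CPM, with triangles for females, squares for males, blue for WT and orange for APP-NL-G-F. In the panel of Fcgr4 and B2m, WT male replicate 2 and APP-NL-G-F female replicate 2 lie apart at the upper right (r = 0.885 with them, 0.699 without), and the genotypes are mixed along each cloud.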

How the data were processed

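RNA of CD11b bead-isolated OB microglia was made into libraries with a Takara SMART-Seq Stranded kit. Paired-end reads were mapped by the authors to GRCm39 (STAR v2.7.8, gencode vM32 genes, plus a human App sequence). The deposited values are raw counts per gene from STAR, and the strand setting is not given in the sources used here, so opposite-strand overlaps count as uncertain. The overlapping genes that have a row held at most 2 counts per library.

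R 4.3.3 with edgeR 4.0.16, limma 3.58.1 and DESeq2 1.42.0 was used. Rows were tested where 8 or more libraries (50%) had 5 or more counts, leaving 18227 of 57010 genes with 99.86% of counts, at depths of 9052932 to 18117286 per library. Counts were scaled by TMM. The genotype test (glmQLFit, glmQLFTest) was adjusted for sex, and a model of the 4 groups gave the within-sex and interaction contrasts. Calls required a log2 fold change beyond 0.5 in size and an FDR (Benjamini-Hochberg) under 0.1. Standard errors follow from the estimate and its F statistic. Log2 CPM used a prior count of 2, and the Fcgr3 to Fcgr2b ratio a pseudocount of 0.5. Scripts were tested on simulated data. Lengths, positions and sequences came from GRCm39 with gencode vM39.

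The members, the gene lists and the tests were chosen with earlier results of these data known. Named genes are the members, the 5 pathway genes of smallest p where none is called, the immunoglobulin chains, B2m, and for each member the 3 genes of highest r, and further genes are said where they appear to be named after their values were seen or to describe a list. Alternatives covered scaling, test, filter, threshold, dispersion, covariates, the replicate number and each library left out.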

Additional observations from a re-analysis of the deposited data

Results flagged for a closer look

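Within the groups of 4 libraries, 3 member values lay far from the rest of their group, measured as the gap to the nearest library divided by the range of the group, and judged by Dixon's 95% critical value for 4 samples. Over the 32 groups tested chance gives 1.6 such values. Fcgr1 in WT male replicate 2 was highest, at 233.5 CPM beside 187.2 to 193.7 CPM in the other 3 (0.86). Fcgr2b in APP-NL-G-F male replicate 3 was highest, at 239.5 CPM beside 213.9 to 215.5 CPM (0.938). Fcgr4 in APP-NL-G-F female replicate 2 was highest, at 18.21 CPM beside 8.63 to 9.879 CPM (0.87). With each of these libraries left out in turn, 0 members were called for genotype by edgeR.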

How the results depend on the processing

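The count of members called stayed at 0 in all 151 alternatives and left-out libraries over the genotype, within-sex, interaction and sex comparisons. In the main fits 8.64% of all genes were called for genotype and 7.15% in females. The shares were 0.252% in males, 0.0274% for the interaction and 0.0604% for sex. At such shares a count of 0 among 7 genes says little. Of the member fold changes recomputed, 198 kept their sign and 5 did not, all of them near 0: Fcgr3 to 0.014 with library totals only and to 0.032 in the libraries numbered 9 to 16, and Fcgr2b to -0.022 in the libraries numbered 1 to 8, to -0.027 without APP-NL-G-F female replicate 2 and to 0 without WT female replicate 4 (-0.027 to 0.036 over all left-out libraries). The 1574 genes called for genotype became 2692 at FDR alone, 2503 in the libraries numbered 1 to 8, 80 in those numbered 9 to 16 and 1101 to 2187 with 1 library left out. The 0 pathway genes called became 8 at FDR alone, 2 in the libraries numbered 1 to 8 (Bcl10 and Lilrb4a), 1 (Lilrb4a) with DESeq2, limma voom, no filter or a term for libraries 1 to 8 against 9 to 16, and 0 to 1 with 1 library left out. The 7 adaptors at FDR below 0.1 became 0 in the libraries numbered 9 to 16 and 6 to 12 with 1 library left out. The split by library number, like the adaptor count, was chosen after seeing the data, and the cause of these shifts was not tested.

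Deviations of libraries with the same replicate number correlated at -0.472 to 0.422, over 0.1 in 15 of 24 pairs. Their median r was 0.128, beside -0.046 for pairs with different numbers, and 5 of 16 libraries were most like one of their own number. For the split by library number, the median r was 0.113 for pairs within a part and -0.144 for pairs across parts. Libraries with the same replicate number always lay in the same part. The cause of these differences was not tested. With the replicate block 0 members and 1 pathway gene (Lilrb4a) were called, 1562 genes in all, and the difference in the Fcgr3 to Fcgr2b log2 ratio was -0.04 (exact permutation p = 0.43). Depth limits Fcgr4 most, at 89 to 316 counts per library.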

Other observations

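Immunoglobulin chains below the filter on low counts were read in a fit without that filter, over 39394 genes, and chosen after their values were seen. Igkc, the kappa light chain, gave 11 counts in WT, in 4 of 8 libraries, and 79 counts in APP-NL-G-F, in 7 of 8 (edgeR FDR = 8.25e-05). Igha, the heavy chain of IgA, gave 18 counts, all in WT male replicate 2, and 79 counts in 7 of 8 APP-NL-G-F libraries (FDR = 0.00484). Jchain, which joins the units of IgA and IgM, gave 8 and 34 counts in 4 and 6 libraries (FDR = 0.0478). In the fit without the filter 7.62% of all genes had an FDR below 0.1. None of the other immunoglobulin chains in it had such an FDR, the lowest being that of Ighd (FDR = 0.14). In fits that left out 1 library at a time the FDR stayed below 0.1 in 16 of 16 fits for Igkc and Igha and in 14 of 16 for Jchain, where it reached 0.125 without APP-NL-G-F male replicate 2. These genes together gave few counts per library, at most 27 for Igkc, and their fitted folds depend on the prior count. B cell markers summed to 5.267 to 7.966 CPM in WT and 5.27 to 8.083 CPM in APP-NL-G-F.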
